A study of Mus musculus with 6 samples.

Results

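The Hedgehog pathway was described here through 8 genes: *Shh*, *Ptch1*, *Smo*, *Gli1*, *Gli2*, *Gli3*, *Sufu* and *Hhip*. They were chosen by name, and every probe set whose gene symbol entry held 1 of these names was read. All 8 of the 22527 gene symbols listed on the array were found, with 21 of the 45077 probe sets. On this array a transcript is read by a probe set, short oligonucleotides whose signals are combined, and a gene may have several. None of the 21 listed a second gene.

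RNA came from the cerebral cortex of male mice and was hybridised to Affymetrix mouse expression arrays in strip format, with 2 arrays in each of 3 groups and 6 in all. SAMP8, a senescence-accelerated inbred strain, received sugarcane top ethanolic extract (STEE) orally at 20 mg/kg (STEE-fed SAMP8) or water (SAMP8 control). SAMR1, the related senescence-resistant strain, received water. Dosing ran for 30 days and went on through 8 days of behavioral tests, and the age given for the mice, 16 weeks, is not tied to the start or the end of dosing. All 3 groups had been dosed by mouth, housed singly and tested before the cortex was taken. Per the paper, the animals of every group also had BrdU, a label of dividing cells, in the water they drank. The comparison of SAMP8 control with SAMR1 addresses the strain difference, and that of STEE-fed SAMP8 with SAMP8 control addresses the extract. Both comparisons rest on the same SAMP8 control arrays.

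The files used here give 1 average of the log2 signal per group and probe set, with no value for a single array. The values below are therefore the authors' means without an error, no test between groups was run, and whether a difference exceeds the spread between mice was not assessed here. The p-values of the authors' own comparisons were not used. A difference was counted when it reached 1.2-fold, which is 0.263 on the log2 scale, and each count was set beside the share of all 45077 probe sets that did so. The means are rounded to 2 decimals, so that rounding alone can move a difference by up to 0.01.

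Hedgehog ligands are secreted proteins that carry a lipid anchor. In the absence of ligand, Patched keeps Smoothened inactive and the Gli proteins are held back by Sufu and partly processed to repressors. Ligand bound to Patched releases Smoothened, which acts in the primary cilium, and full-length Gli proteins then switch on target genes, among them *Gli1*, *Ptch1* and *Hhip*. The pathway patterns the neural tube in the embryo. In the adult cortex it is known for signaling from neurons that make *Shh* to astrocytes that express *Gli1*.

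RefSeq windows upstream of the annotated transcript start (build GRCm38.p6, 250 bases) were found for 6 of the 8 genes, all but *Shh* and *Gli1*. Windows of *Gli3*, where the strain difference below was found, and of *Sufu*, the least rich in CG of the 6, are shown as examples with more and with fewer CG dinucleotides. The richest is that of *Ptch1*, which is not shown. Both end at the base before the start, are read 5′ to 3′ on the + strand, and carry CG dinucleotides in capitals; *Gli3* lies at chr13:15463473-15463722 and *Sufu* at chr19:46396646-46396895.
Gli3: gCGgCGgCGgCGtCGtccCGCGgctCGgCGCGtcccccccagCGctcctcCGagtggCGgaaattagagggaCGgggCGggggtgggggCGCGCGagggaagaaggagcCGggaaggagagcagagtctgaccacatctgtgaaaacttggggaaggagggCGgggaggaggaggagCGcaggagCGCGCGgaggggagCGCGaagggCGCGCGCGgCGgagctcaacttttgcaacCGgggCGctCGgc
Sufu: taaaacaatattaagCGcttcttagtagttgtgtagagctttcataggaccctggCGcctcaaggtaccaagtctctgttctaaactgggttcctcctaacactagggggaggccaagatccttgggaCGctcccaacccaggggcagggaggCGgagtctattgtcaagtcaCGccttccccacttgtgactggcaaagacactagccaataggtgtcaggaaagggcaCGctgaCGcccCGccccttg
The *Gli3* window held 34 CG dinucleotides and that of *Sufu* 8, against a median of 6 over 32851 windows. Counts were 41 for *Ptch1*, 28 for *Hhip*, 22 for *Gli2* and 15 for *Smo*, so that all 6 lay above the median. G and C made up 78.4% of the *Ptch1* window and 54% of the *Sufu* window, with a median of 52.4% over all windows. The 9-letter Gli binding sequence GACCACCCA, or TGGGTGGTC on the other strand, was in none of the 6 windows and in 0.225% of all windows. That says only that these letters are not in the 250 bases before these starts.

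Of the 21 probe sets, 1 differed by at least 1.2-fold between SAMP8 control and SAMR1, a *Gli3* probe set that was higher in SAMP8 control. Over all probe sets 7.11% did so, 3.68% higher and 3.43% lower in SAMP8 control, so that the members' share was not above the background. Between STEE-fed SAMP8 and SAMP8 control 1 of the 21 reached this size, a *Ptch1* probe set that was lower with STEE, and the background was 2.01%, with 1.03% higher and 0.976% lower. A further comparison, STEE-fed SAMP8 with SAMR1, uses no SAMP8 control array. There the same *Gli3* and *Ptch1* probe sets were past 1.2-fold, 2 of 21 with a background of 7.85%, made up of 4.6% higher and 3.25% lower with STEE.

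The median difference over the 21 probe sets was 0.02 for SAMP8 control minus SAMR1, with 11 higher, 8 lower and 2 equal, and the median over all probe sets was 0.00. With STEE it was -0.02, with 8 higher, 12 lower and 1 equal, and again 0.00 over all. Differences without regard to sign had a median of 0.07 between the strains and 0.05 with STEE, beside 0.07 and 0.06 over all probe sets. As a set, the 8 genes therefore lay as close together across the groups as the array as a whole.

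**Figure D1:**
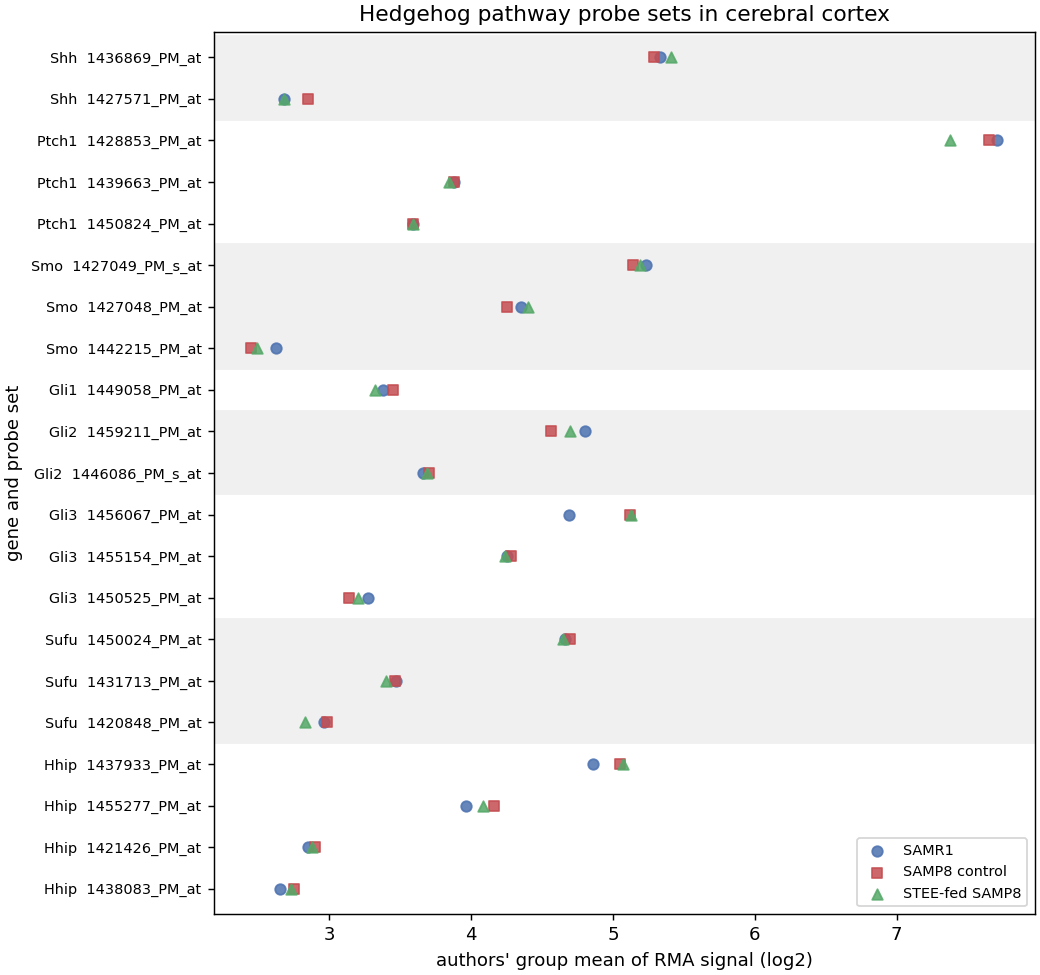
Authors' group mean of the log2 RMA signal (horizontal axis) for each of the 21 probe sets of the 8 Hedgehog genes (vertical axis, grouped by gene); circles are SAMR1, squares SAMP8 control and triangles STEE-fed SAMP8, and no error is shown because the means carry none. The probe sets of a gene lie far apart from each other, while the 3 groups of a row mostly lie close together. The widest gaps are at *Gli3* 1456067_PM_at, with SAMR1 at 4.69 and both SAMP8 groups at 5.12 and 5.13, and at *Ptch1* 1428853_PM_at, with STEE-fed SAMP8 at 7.38 below the other groups.

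Averaged over the 3 groups, the signals of the 21 probe sets ran from 2.52 (*Smo* 1442215_PM_at) to 7.58 (*Ptch1* 1428853_PM_at). Of the 21, 12 did not exceed the array's median probe set, where a signal may be close to the unspecific level of the array and differences are compressed. Brightness also depends on the probes, so these levels do not rank the genes.

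*Shh* encodes the ligand Sonic hedgehog and is read by a pair of probe sets. At the brighter one, 1436869_PM_at, the authors' mean log2 signal was 5.33 in SAMR1, 5.29 in SAMP8 control and 5.41 with STEE. At 1427571_PM_at it was 2.68, 2.85 and 2.68 in the same order, a signal above only 8.80% of all probe sets. The 2 probe sets placed SAMP8 control at opposite ends, lowest at the brighter one and highest at the dimmer one. STEE-fed SAMP8 and SAMR1 differed by 0.08 and 0.00.

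*Ptch1* encodes Patched 1, the receptor that restrains Smoothened and is itself a target of the pathway. At 1428853_PM_at, the brightest probe set of all members, the authors' mean log2 signal was 7.71 in SAMR1, 7.65 in SAMP8 control and 7.38 with STEE. The STEE group was thus the lowest, by -0.27 or 1.21-fold against SAMP8 control and by -0.33 or 1.26-fold against SAMR1, while the strains given water differed by -0.06. Of all probe sets, 2.01% differed at least as much between STEE-fed SAMP8 and SAMP8 control and 4.83% between STEE-fed SAMP8 and SAMR1. A difference of -0.27 lies so close to the threshold that rounding of the means could take it below 1.2-fold. The other *Ptch1* probe sets did not share the pattern: 1439663_PM_at was 3.88, 3.88 and 3.84, and 1450824_PM_at was 3.59 in each group. Averaged over its 3 probe sets, *Ptch1* differed by -0.10 with STEE.

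*Hhip* encodes a membrane protein that binds Hedgehog ligands and keeps them from Patched, and it too is a pathway target. Its brightest probe set, 1437933_PM_at, had an authors' mean of 4.86 in SAMR1, 5.05 in SAMP8 control and 5.07 with STEE. At 1455277_PM_at the means were 3.96, 4.16 and 4.08. The dim probe sets read 2.85, 2.90 and 2.88 (1421426_PM_at) and 2.65, 2.75 and 2.73 (1438083_PM_at). SAMR1 was the lowest group at all 4. SAMP8 control lay 0.05 to 0.20 and STEE-fed SAMP8 0.03 to 0.21 above it, and none reached 1.2-fold. Of the 1234 genes with 4 probe sets, 10.1% had all of them higher in SAMP8 control. Between STEE-fed SAMP8 and SAMP8 control, *Hhip* differed by -0.08 to 0.02.

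*Smo* encodes Smoothened, the membrane protein that passes the signal on. The authors' means in SAMR1, SAMP8 control and STEE-fed SAMP8 were 5.23, 5.14 and 5.19 at 1427049_PM_s_at. They were 4.35, 4.25 and 4.40 at 1427048_PM_at and 2.62, 2.45 and 2.49 at 1442215_PM_at, which is dimmer than all but 3.09% of the probe sets. SAMP8 control was the lowest group at all 3, by -0.17 to -0.09 against SAMR1. STEE-fed SAMP8 exceeded SAMP8 control by 0.04 to 0.15, and since both differences are taken from the same SAMP8 control means, they are not separate evidence. All 3 probe sets lower in SAMP8 control was found for 16.5% of the 2685 genes with 3 probe sets, and all 3 higher with STEE for 16.7%. Against SAMR1, STEE-fed SAMP8 differed by -0.13 to 0.05, in both directions.

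*Sufu* encodes Suppressor of fused, which holds Gli proteins back in the cytoplasm. Its authors' means were 4.66 in SAMR1, 4.70 in SAMP8 control and 4.65 with STEE at 1450024_PM_at. At 1431713_PM_at they were 3.47, 3.46 and 3.40, and at 1420848_PM_at 2.96, 2.98 and 2.83. The strains given water were close, within 0.04 at each probe set. STEE-fed SAMP8 was the lowest group at all 3, by -0.15 to -0.05 against SAMP8 control, and 13.0% of the genes with 3 probe sets were lower with STEE at all of them. The largest of these differences was at the dimmest probe set.

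*Gli1*, *Gli2* and *Gli3* encode the zinc finger transcription factors at the end of the pathway. *Gli1* is an activator and a target gene often used as a readout of Hedgehog signaling. Its single probe set, 1449058_PM_at, had an authors' mean of 3.38 in SAMR1, 3.45 in SAMP8 control and 3.32 with STEE. The STEE group was the lowest, by -0.13 against SAMP8 control, a size that 19.0% of all probe sets reached, and the signal was below the array median. *Gli1* and the bright *Ptch1* probe set were both lowest with STEE, whereas *Hhip* was not. The other *Ptch1* probe sets differed with STEE by only -0.04 and 0.00. The inhibitor *Sufu* was also lowest with STEE, at all 3 of its probe sets. Whether pathway activity differed was not tested.

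*Gli2*, the main activator of the family in the embryo, was read by 1459211_PM_at, with means of 4.80, 4.56 and 4.70 in SAMR1, SAMP8 control and STEE-fed SAMP8. At 1446086_PM_s_at the means were 3.66, 3.70 and 3.69. The former was -0.24 or 1.18-fold lower in SAMP8 control than in SAMR1, just short of the threshold, and 9.32% of all probe sets differed at least as much; the latter differed by 0.04 in the other direction. Both probe sets carry the same transcript identifier of the array design, so this identifier does not separate them.

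*Gli3*, which acts mostly as a repressor, showed the largest difference among the members. At 1456067_PM_at the authors' mean was 4.69 in SAMR1, 5.12 in SAMP8 control and 5.13 with STEE. Both SAMP8 groups were thus above SAMR1, by 0.43 or 1.35-fold and by 0.44 or 1.36-fold, and were within 0.01 of each other. A strain difference of 0.43 or more was found at 2.01% of all probe sets. The other *Gli3* probe sets read 4.25, 4.28 and 4.24 (1455154_PM_at) and 3.27, 3.14 and 3.20 (1450525_PM_at), so that SAMP8 control differed from SAMR1 by 0.03 and -0.13 there. Over its 3 probe sets *Gli3* differed by 0.11 between the strains, below the threshold. At a single probe set, a strain difference in the RNA and a strain difference in how the RNA meets the probes cannot be told apart.

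**Figure D2:**
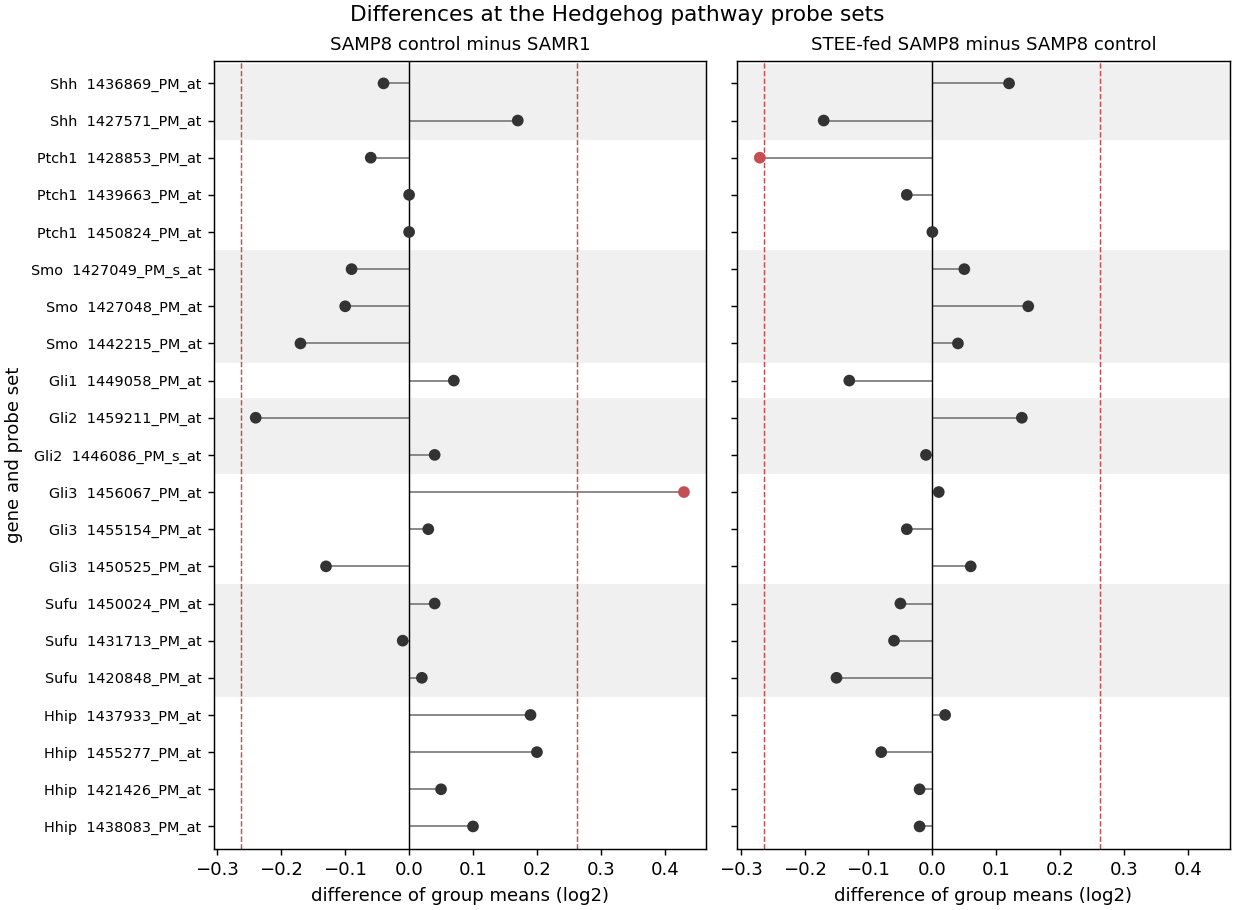
Difference of the authors' group means on the log2 scale (horizontal axis) at each of the 21 probe sets (vertical axis), SAMP8 control minus SAMR1 on the left and STEE-fed SAMP8 minus SAMP8 control on the right; dashed lines mark 1.2-fold and filled red points lie past it. Only *Gli3* 1456067_PM_at at 0.43 on the left and *Ptch1* 1428853_PM_at at -0.27 on the right are past the lines, and the rows of *Hhip* (left), *Smo* and *Sufu* (right) each lean mostly one way by smaller amounts.

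The probe sets with a pattern most like that of *Gli3* 1456067_PM_at, by distance in the strain and STEE differences over the 3 group means, were those of *Rbbp4* (6.42, 6.85 and 6.86), 5730508B09Rik (4.20, 4.62 and 4.63) and *Nupl1* (6.22, 6.65 and 6.65). With only 3 group means many patterns coincide, and 27 probe sets lay within 0.02 of *Gli3* in both differences.

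Of 46 other genes of the pathway, all on the array with 115 probe sets, 7 genes had a probe set past 1.2-fold between SAMP8 control and SAMR1, at 6 probe sets higher and 4 lower in SAMP8 control (8 and 3 after the groups were centred on the same median). That is 8.70% of the 115, beside 7.11% of all probe sets. Between STEE-fed SAMP8 and SAMP8 control 3 genes did, at 0 probe sets higher and 7 lower with STEE, which is 6.09% of the 115 beside a background of 2.01% in either direction and 0.976% for lower. Of these 7, 5 were probe sets of *Ccnd2*. The others, and *Ccnd2* 1416124_PM_at, were dimmer than the array median. At *Ccnd2* 1455956_PM_x_at the difference was -0.27, which rounding of the means could take below 1.2-fold. The median difference over the 115 was 0.00 in both comparisons. The lists of these genes were chosen with earlier results of these data known, so the shares are no test.

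Ligands and the proteins that lipidate and release them (*Ihh*, *Dhh*, *Hhat*, *Disp1*, *Disp2*, *Scube1* to *Scube3*; 13 probe sets) held none past the threshold in either comparison. Their differences ran from -0.10 to 0.19 between the strains and from -0.19 to 0.12 with STEE. Among receptors and co-receptors (14 probe sets), none passed between the strains and 1 passed with STEE, or 7.14% beside 2.01% of all probe sets. The 1 that passed was a probe set of *Lrp2*, which encodes the large endocytic receptor megalin. At this probe set the authors' means were 3.76, 4.02 and 3.72 in SAMR1, SAMP8 control and STEE-fed SAMP8. The difference with STEE was -0.30, while the gene's other 2 probe sets differed by 0.04 and -0.04. The *Lrp2* probe set that passed was dimmer than the array median. *Boc*, a co-receptor that binds ligand on the cell surface, was lower with STEE at all 3 probe sets, by -0.15 to -0.02, none past the threshold, and 13.0% of the genes with 3 probe sets were lower at all of them.

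The 62 probe sets of intracellular and ciliary regulators held 3 past the threshold between the strains and 0 with STEE. That is 4.84% and 0%, beside 7.11% and 2.01% of all probe sets. *Prkacb*, a catalytic subunit of protein kinase A, which phosphorylates Gli proteins toward processing, had means of 6.26, 6.75 and 6.70 in SAMR1, SAMP8 control and STEE-fed SAMP8 at 1420610_PM_at. That is 0.49 or 1.40-fold higher in SAMP8 control than in SAMR1, whereas its other probe sets differed by 0.18 and -0.21. *Btrc*, the ubiquitin ligase subunit that recognizes phosphorylated Gli proteins, was 4.71, 5.03 and 4.96 at 1425680_PM_a_at, while its other 4 probe sets differed between the strains by -0.05 to 0.15. *Csnk1a1*, encoding casein kinase 1 alpha, had the largest difference of the whole pathway at 1430529_PM_at, with 6.97 in SAMR1 and 5.65 in both SAMP8 groups, or -1.32 and 2.50-fold. The gene's other 3 probe sets differed between the strains by -0.04, -0.14 and 0.26, so that the strain difference was not shared among them.

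Genes known as Hedgehog targets in development or tumours held most of the differences. Between the strains 7 of 26 probe sets passed, from 4 genes, which is 26.9% beside 7.11% of all probe sets. Of these, 3 were probe sets of *Ccnd2* and 2 of *Ccnd1*. In the comparison with STEE 6 of 26 passed, from 2 genes, which is 23.1% beside 2.01%. With STEE all 6 were lower, and 5 of them belonged to *Ccnd2*, which encodes the cell cycle regulator cyclin D2, so they report on the same gene. The list was chosen with earlier results of these data known, so these shares describe it and do not test it. All 7 *Ccnd2* probe sets were lower with STEE, by -0.41 to -0.16 against SAMP8 control, 2 of them of kinds (_s_at, _x_at) whose probes can also match other transcripts. This held for 2.86% of the 105 genes with 7 probe sets. At the brightest, 1434745_PM_at, the authors' mean was 7.53 in SAMR1, 7.94 in SAMP8 control and 7.53 with STEE, and at 1416122_PM_at it was 7.28, 7.68 and 7.33. SAMP8 control was above SAMR1 at 6 of the 7, by up to 0.41, and 3 were past the threshold. As the SAMP8 control means enter both differences, the opposite signs of the strain and STEE differences are not separate evidence. The direct difference between STEE-fed SAMP8 and SAMR1 ran from -0.35 to 0.05. STEE-fed SAMP8 was lower than SAMR1 at 4 of the 7 probe sets, higher at 2 and equal at 1.

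*Mycn*, a growth-promoting transcription factor gene, supplied the other probe set lower with STEE, 1417155_PM_at, with means of 3.78, 3.92 and 3.63. This probe set was dimmer than the array median, and the gene's other probe sets differed with STEE by -0.19 and 0.05. *Ccnd1*, which encodes cyclin D1, was lower in SAMP8 control than in SAMR1 at all 3 probe sets. Its authors' means were 5.61, 5.27 and 5.28 in SAMR1, SAMP8 control and STEE-fed SAMP8 at 1417419_PM_at. Strain differences of *Ccnd1* ran from -0.34 to -0.26, and 2 of the 3 were past the threshold. *Nkx2-2*, a transcription factor gene of ventral neural progenitors and the oligodendrocyte lineage, was 4.07, 3.63 and 3.72 at its single probe set. *Bcl2*, which encodes an inhibitor of cell death, was 6.21, 6.55 and 6.56 at 1457687_PM_at, while its other 4 probe sets differed between the strains by -0.10 to 0.20.

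**Figure D3:**
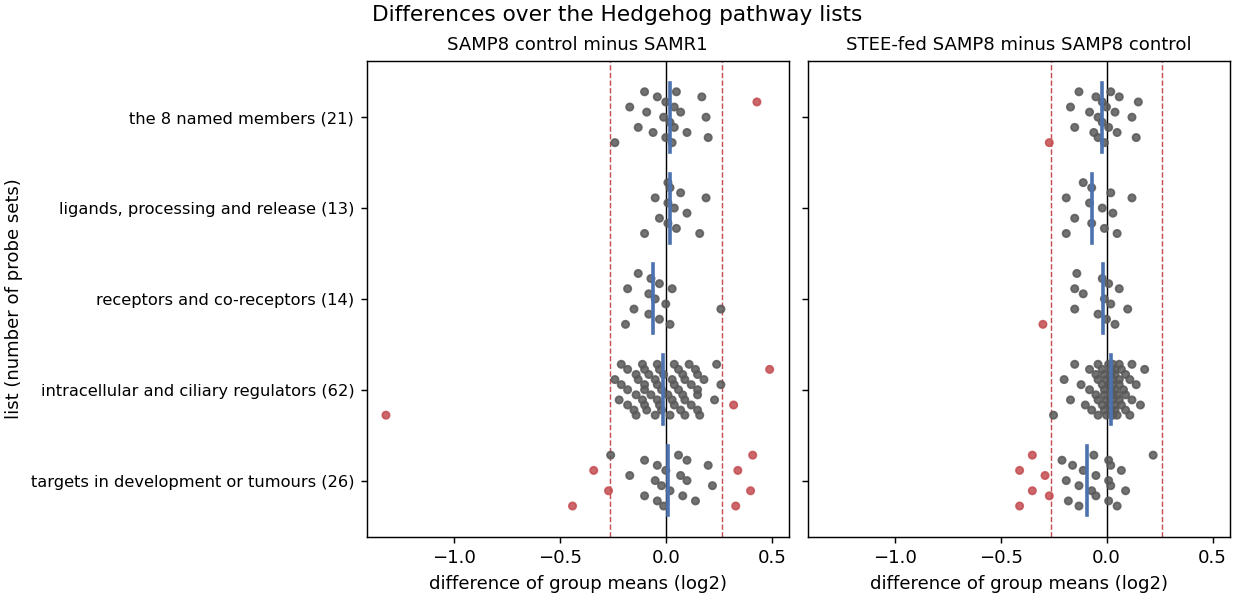
Difference of the authors' group means on the log2 scale (horizontal axis) for every probe set of the 8 members and of the 4 other pathway lists (vertical axis, with the number of probe sets), SAMP8 control minus SAMR1 on the left and STEE-fed SAMP8 minus SAMP8 control on the right; points are spread vertically for legibility, blue bars are medians, dashed lines mark 1.2-fold and red points lie past it. With STEE all 7 red points outside the members are lower, 6 of them among the targets, and on the left the point at -1.32 is *Csnk1a1*.

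Markers of cortical cells were bright in all groups: those of neurons averaged 9.60, 9.70 and 9.70 and those of astrocytes 9.03, 8.95 and 8.93 in SAMR1, SAMP8 control and STEE-fed SAMP8, read from the brightest probe set of each gene. None of the 6 neuronal and 8 astrocyte genes was past 1.2-fold in either comparison. These are the cell types in which the pathway is best known in cortex. Microglial genes passed at 0 of 5 in both comparisons and endothelial genes at 1 of 4, lower, between the strains.

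Markers of tissue next to the cortex moved with the strain comparison. All 6 genes typical of striatum had higher means in SAMP8 control, 0.32 to 0.89 above SAMR1, and the list averaged 7.61, 8.28 and 8.32 in SAMR1, SAMP8 control and STEE-fed SAMP8. All 4 thalamic genes were lower, by -0.97 to -0.28, with averages of 6.84, 6.25 and 6.27. Oligodendrocyte genes were past the threshold and lower at 4 of 6, hippocampal genes at 2 of 4 and choroid plexus genes at 3 of 6, among them *Ttr* at -1.96. The hippocampal genes that passed (*Dsp* and *Lct*) and the other choroid plexus genes that passed (*Kcne2* and *Otx2*) were dimmer than the array median. *Spink8* of the hippocampal list was higher in SAMP8 control, by 0.14. The order of the groups at *Gli3* 1456067_PM_at, SAMR1 lowest and both SAMP8 groups level, was also that of the striatal list. SAMR1 was likewise the lowest group at all 4 *Hhip* probe sets. It was also lowest at the probe sets of *Prkacb*, *Btrc* and *Bcl2* that passed between the strains. At *Nkx2-2*, *Ccnd1* and *Csnk1a1* 1430529_PM_at SAMR1 was the highest group, as it was for the thalamic and oligodendrocyte lists. The part of these tissues in the strain differences given above was not tested. In cortex homogenate, a different share of a cell type or of adjoining tissue and a different amount of RNA per cell cannot be told apart.

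With STEE these lists were nearly level. The medians of the striatal, thalamic and oligodendrocyte lists were 0.01, 0.01 and -0.025 when SAMP8 control was subtracted from STEE-fed SAMP8, and no gene of them was past 1.2-fold. *Ttr* was the exception among all the markers, 1.09 higher with STEE. The other 5 choroid plexus genes differed by -0.09 to 0.02. The part of any of these tissues in the STEE differences was not tested.

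**Figure D4:**
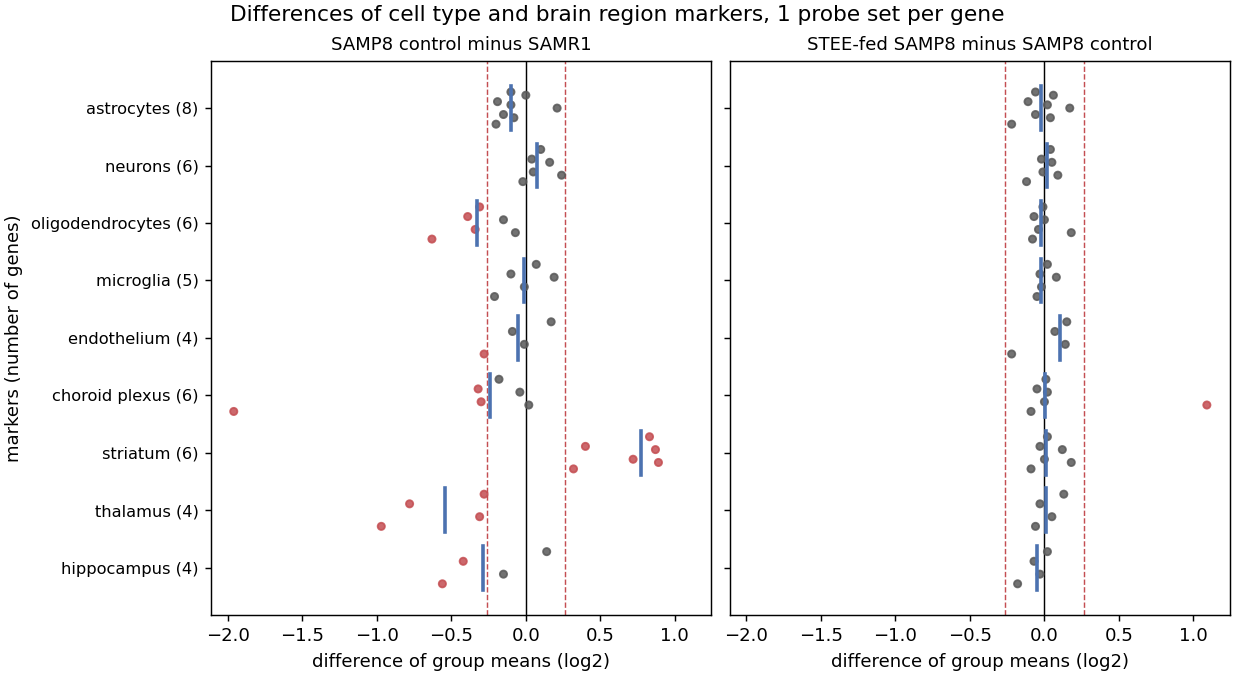
Difference of the authors' group means on the log2 scale (horizontal axis) for markers of cell types and brain regions (vertical axis, with the number of genes), read from the brightest probe set of each gene, SAMP8 control minus SAMR1 on the left and STEE-fed SAMP8 minus SAMP8 control on the right; points are genes spread vertically for legibility, blue bars are medians, dashed lines mark 1.2-fold and red points lie past it. On the left the 6 striatal genes are all higher and the 4 thalamic genes all lower in SAMP8 control, and on the right only *Ttr*, at 1.09, is past the lines.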

How the data were processed

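Cortical RNA of 6 mice, 2 per group, was labelled with a 3′ IVT kit and read on Affymetrix arrays. Per the labels, the authors ran RMA in Affymetrix Expression Console and used Transcriptome Analysis Console. What they deposited are log2 signals averaged per group (bi-weight averages with 2 decimals), for 45077 probe sets in 2 tables. RMA normalises between arrays, so a shift of most genes at the same time would not be seen. The SAMP8 control column was the same in both tables (largest difference 0). Each table also holds the authors' linear fold changes, ANOVA p-values and FDR p-values, which were not used. Values per array were not analysed here.

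Groups followed the sample titles. Differences of the group means were taken probe set by probe set with Python 3.11.15, pandas 2.3.3 and numpy 2.4.6, drawn with matplotlib 3.10.9, and counted from 1.2-fold; the counting was tested on simulated data. Without a spread, no test was run, and the number of arrays limits the precision. The members, the pathway and marker lists and the threshold were chosen with earlier results of these data known. All 21 member probe sets were described, and of the other pathway genes those with a probe set past the threshold, plus *Boc*, which was singled out after its values were seen. *Grk2*, *Drd1* and *Penk* were matched as *Adrbk1*, *Drd1a* and *Penk1* through synonyms in RefSeq (GRCm38.p6). Alternatives were the fold threshold, centring of the groups, a filter on dim probe sets and the choice of probe sets.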

Additional observations from a re-analysis of the deposited data

How the results depend on the processing

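Centring the 3 groups on the same median moved no member's difference by more than the 0.01 that rounding allows, and kept each of their counts within 1.5 times; between the strains, 8 other pathway probe sets were then higher and 3 lower, in place of 6 and 4. The fold threshold moved the counts most. At 1.1-fold, 6 member probe sets passed between SAMP8 control and SAMR1 and 5 between STEE-fed SAMP8 and SAMP8 control, beside 25.9% and 16.2% of all probe sets, and 42 and 25 of the other pathway probe sets. At 1.5-fold, 0 members passed in either comparison or between STEE-fed SAMP8 and SAMR1, beside 0.876%, 0.0799% and 1.02% of all probe sets, and of the other pathway probe sets 1 passed between the strains and 0 with STEE. With 1 value per gene as the mean over its probe sets, 0 of the 8 members passed in any of the 3 comparisons, and 3 and 1 of the other pathway genes did. With the brightest probe set of each gene, the members' counts stayed at 1, 1 and 2, and 3 and 2 of the 46 other pathway genes passed. The share of all genes was not counted with 1 value per gene. These counts per gene therefore have no background to be read against. Of the 73 other pathway probe sets brighter than the median, 8 passed between the strains and 4 with STEE, these 4 all of *Ccnd2*. The *Lrp2* and *Mycn* probe sets that had passed with STEE, and *Ccnd2* 1416124_PM_at, were dimmer than the median. The share of all probe sets under this filter was not counted. The calls of *Gli3* and *Ptch1* thus rest on a single probe set each. No paired analysis was possible because the files used here hold group means and no value per array, and for the same reason no replicate could be left out.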

Other observations

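Compared directly with SAMR1, without the SAMP8 control arrays, STEE-fed SAMP8 had 11 of the 115 other pathway probe sets past 1.2-fold, 3 higher and 8 lower, which is 9.57% beside 7.85% of all probe sets. All 3 probe sets of *Ccnd1* were lower, by -0.39 to -0.33. *Tulp3*, which encodes a protein that carries receptors into the primary cilium and restrains the pathway, had authors' means of 5.84, 5.73 and 5.53 in SAMR1, SAMP8 control and STEE-fed SAMP8 at 1449008_PM_at, a difference of -0.31; its other probe sets differed by -0.03 and -0.08. *Boc* was lower than in SAMR1 at all 3 probe sets, by -0.23 to -0.15, as was *Mycn*, by -0.15 to -0.05, with none of these past the threshold; 18.3% of the genes with 3 probe sets were lower at all of them, and *Boc* was singled out after its values were seen. The largest single difference was again that of *Csnk1a1* 1430529_PM_at, -1.32. At the brightest probe set of *Csnk1a1*, 1424827_PM_a_at, STEE-fed SAMP8 was past the threshold in the other direction, 0.27 above SAMR1.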
